A study of Mus musculus with 30 samples.

Results

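Skeletal muscle of untreated Kif3aΔTub mice was compared with muscle of untreated wild-type mice at 6 weeks of age. The comparison took every muscle array whose source label is Kif3aΔTub + PBS (4 arrays) or WT + PBS (3 arrays), which are 7 of the 30 arrays of the series and 7 of its 15 muscle arrays. The genotype label of the mutants, Kif3aKSPCre, names a Cre recombinase under the promoter of Ksp-cadherin (Cdh16), a gene of kidney tubule epithelium, so the mutation that defines the group is in the kidney and the muscle is studied as a distant tissue. Whether the wild-type animals carried Cre or floxed alleles, which muscle was taken and the sex of the animals are not stated in the labels. All 7 animals received PBS, the vehicle of sActRIIB-Fc, a soluble activin receptor fusion protein called the trap here, which other animals of the series received at 10 mg/kg weekly in 2 intraperitoneal injections. The number in each title, which a muscle and a kidney array share, is read here as that of the animal, so each array stands for 1 animal. Litters, cages and pooling are not stated.

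Kif3a encodes a subunit of the kinesin motor that carries cargo along the primary cilium, and its loss in tubule cells is known to cause cystic kidney disease. Chronic kidney disease is known for muscle wasting. In wasting muscle, the glucocorticoid receptor and the FoxO transcription factors raise genes of protein breakdown, and insulin and insulin-like growth factor hold FoxO out of the nucleus. Fibroblasts between the fibres make the collagens and other proteins of the muscle's connective tissue, which passes force to the tendon.

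The values are log2 intensities, 1 per gene and array, and a change is the mean of the mutants minus the mean of wild type ± its standard error from limma. A gene is called where its p, adjusted over all 17782 genes, is under 0.05. In these terms 2840 genes were called (16% of those tested), 1232 of them higher (6.93%) and 1608 lower (9.04%) in mutant muscle, and 558 were called with a change of at least 2-fold (3.14%). With each array centred on its median, 1595 were higher and 1326 lower of 2921, since the median change of all genes was -0.05. In 2563 of the 2840 called genes every mutant array lay on one side of all wild-type arrays. Such separation was found in 23.3% of all genes, with mutants higher in 9.76% and lower in 13.5%.

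The labelled tissue held. The 14 skeletal muscle markers had a median of 13.96 in wild-type muscle. Among them Ckm, the muscle creatine kinase, read between 14.30 and 14.35 on all 7 arrays. Of the 14, 12 were not called. The share called, 14.3%, was near the 16% of all genes. Of 27 kidney markers, Umod, the most abundant protein of urine, read between 3.11 and 4.55, and the list had a median of 5.01 in wild-type muscle, which serves below as the level of genes that this tissue does not make. Where the mean of a group lies at or under it, the change has no exact size. That holds for the lower group in 44 of 1232 genes called higher and 213 of 1608 called lower, and among genes named below for Acsm3, C1qtnf3, Col11a1, Col4a5, Cth, Ifit1, Kera, Lcn2, Mkx, Mymk, Ret, Slc15a2 and Wif1. Kif3a was at 7.12, 7.08 and 7.76 in wild-type muscle and at 6.71, 7.42, 7.38 and 7.19 in the mutants. The groups overlapped and the change was -0.15 ± 0.18 (adjusted p = 0.658). Cdh16, the gene whose promoter drives the Cre, read 5.89 to 6.31 in wild type and 6.08 to 6.66 in mutants, and was not called.

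One mutant array stood farther out than the others. Along the first principal component, which held 54.9% of the variance of the 7 arrays, wild type lay between -35.7 and -27.4 and the mutants at 46.8, 5.15, 19.0 and 23.5 for replicates 1 to 4. Mutant replicate 1 was the highest of the 4 mutants in 56.8% of the genes called higher and the lowest in 54.4% of those called lower. Replicate 2 lay nearest to wild type for 69.7% of rising and 43.5% of falling genes. The signal of the 18S ribosomal control was 13.28, 13.11 and 13.28 in wild type and 12.88, 13.13, 12.87 and 12.50 in the mutants. With that signal as a covariate 853 genes were called, 223 higher and 630 lower, so the rises lost more of their calls than the falls. The 3' minus 5' signal of the actin control, a sign of RNA integrity, separated the groups, at 0.17, 0.16 and 0.18 in wild type and -0.06, 0.11, 0.04 and 0.14 in the mutants. With it as a covariate 1348 genes were called, 514 higher and 834 lower. The 18S groups overlapped, with mutant replicate 2 (13.13) above wild-type replicate 2 (13.11). In animals that received the trap, described below, 18S was 13.37, 13.26, 13.29 and 13.24 in wild type. It was 13.40, 13.34, 13.17 and 13.05 in their mutants. Thus the 18S signal was lower in untreated mutants except replicate 2, and the actin signal was lower in all of them. The part of these signals and that of the genotype in the untreated groups cannot be told apart. Without wild-type replicate 2 the count was 1659 (590 higher, 1069 lower), and without wild-type replicate 3 the lower count was 1068.

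**Figure D1:**
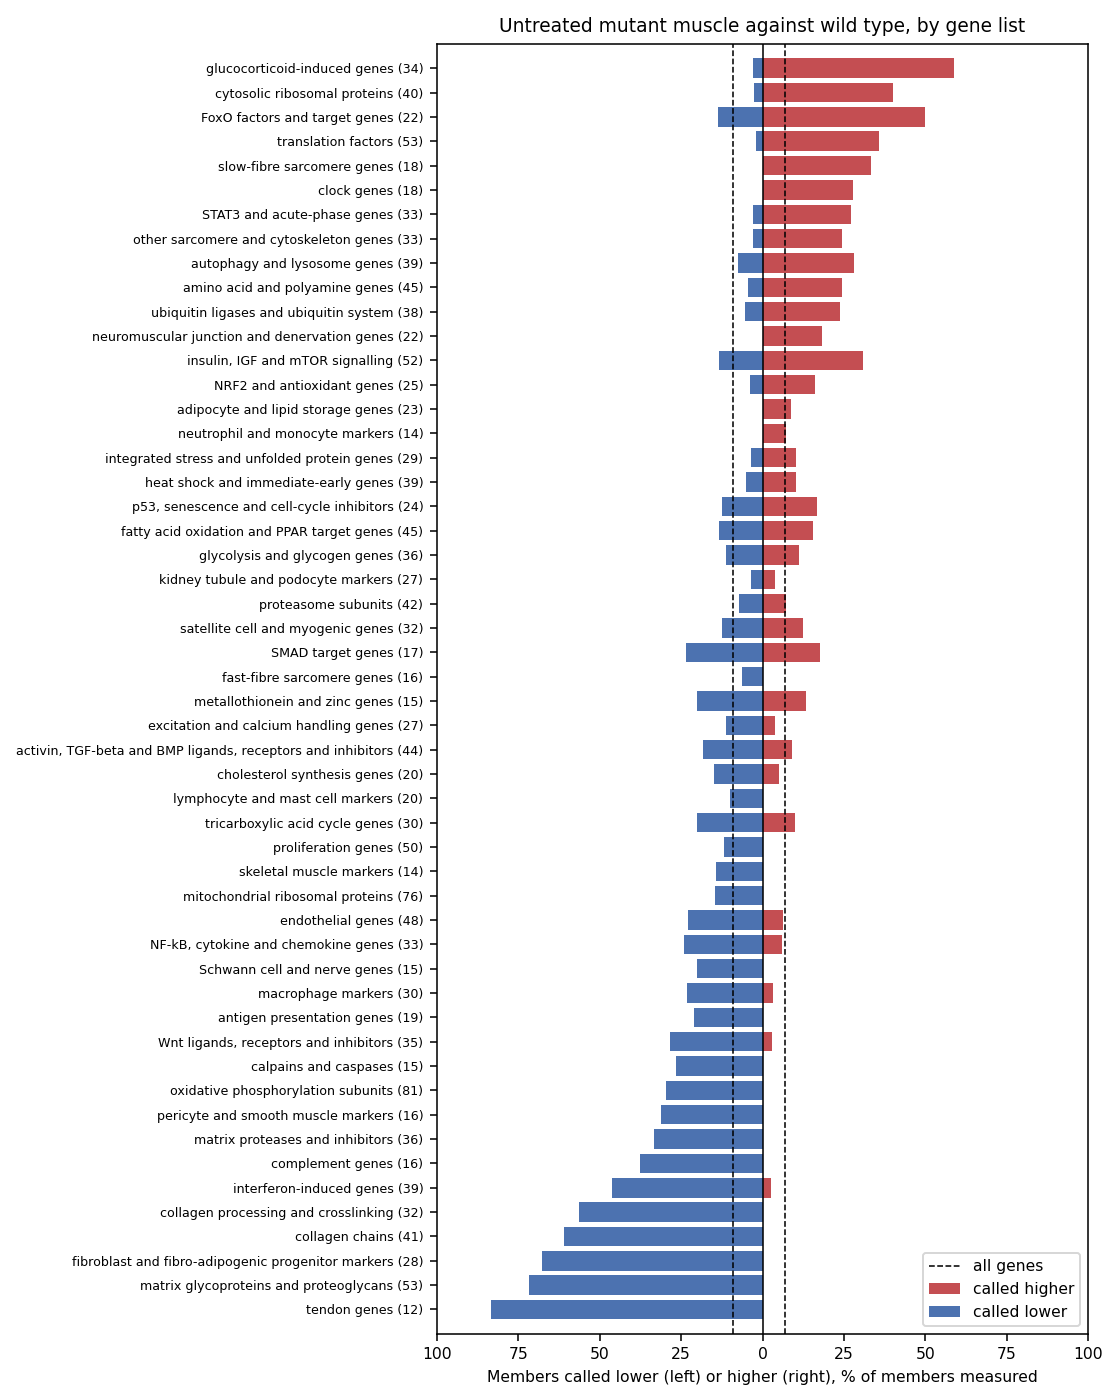
Share of each gene list called higher (right) and lower (left) in untreated mutant muscle, in percent of the members measured, for lists of at least 10 members; the dashed lines mark the shares over all 17782 genes, 6.93% higher and 9.04% lower. Matrix, tendon and fibroblast lists lie to the left and the glucocorticoid and FoxO lists to the right.

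The plot of list shares gives the overall picture. Lists of connective tissue genes had no member called higher and 33.3% to 83.3% of their members called lower. Lists of the glucocorticoid and FoxO responses had 58.8% and 50% of their members called higher. A gene can belong to more than 1 list, and each counts it, so the counts are not separate results. Pik3r1 and Ddit4 are in the glucocorticoid and insulin lists, and Sesn1 is in the FoxO and insulin lists. Trim63 and Fbxo32 are in the FoxO and ubiquitin lists. The list of the contractile apparatus of fast fibres, of which muscle of mice mostly consists, had 1 call in 16 genes (6.25%, beside 16% of all genes).

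Genes of the collagen chains were lower in mutant muscle. Of 41 chains measured 25 were called lower and 0 higher, with a median change of -1.11 against -0.05 over all genes. Leaving out any 1 array left 22 to 24 of them called, and the 18S covariate left 22. Because the samples are whole muscle, fewer cells that make collagen and less RNA per cell cannot be told apart.

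Col1a1, a chain of type I collagen, the main fibre of tendon and of the sheaths around muscle, was at 11.28, 11.19 and 11.28 in wild type and at 6.52, 7.98, 7.13 and 7.67 in mutants. Its partner chain Col1a2 was at 13.24, 13.05 and 13.35 against 10.22, 10.80, 10.38 and 10.99. Col3a1, whose product makes finer type III fibres, was at 13.00, 13.17 and 13.21 against 8.72, 10.15, 10.22 and 10.90. No mutant array reached the lowest wild-type array for any of them. The changes were -3.93 ± 0.27 (adjusted p = 2.06e-07), -2.62 ± 0.19 (adjusted p = 4.68e-07) and -3.13 ± 0.33 (adjusted p = 2.07e-05).

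The fall ran through most classes of collagen. Among fibrillar chains 9 of 11 fell, with a median of -2.12, including Col5a1 (-2.12 ± 0.18) and Col5a2 (-2.26 ± 0.21), which set the diameter of type I fibres. Col11a1, another minor fibrillar chain, went from 7.65, 7.54 and 7.90 to 4.85, 4.90, 4.44 and 4.58 (-3.01 ± 0.16, adjusted p = 3.75e-08), and its mutant arrays lay under 5.01. Of the type VI chains, which form beaded filaments around each fibre, Col6a1, Col6a2 and Col6a3 changed by -2.55 to -2.11 and Col6a4 was not called (0.05). Of the 6 chains of type IV, the collagen of the basement membrane, 4 fell. Col4a1 was at 11.25, 11.06 and 11.25 against 10.12, 9.36, 9.57 and 9.78 (-1.48 ± 0.14). Col4a5 fell by 3.43 ± 0.21, or by 2.18 averaged over its probe sets.

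Fibril-associated chains were mixed, with 4 of 9 lower, among them Col12a1 and Col22a1, a chain of the junction between muscle and tendon (-1.55 ± 0.17). Col12a1 fell by 2.07 ± 0.22 on its brightest probe set and by 0.90 averaged over its probe sets. None of the 4 transmembrane collagens was called. The chains that were not called were dim: their wild-type levels had a median of 5.20 and reached at most 7.17, against a median of 8.45 for the 25 that fell.

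**Figure D2:**
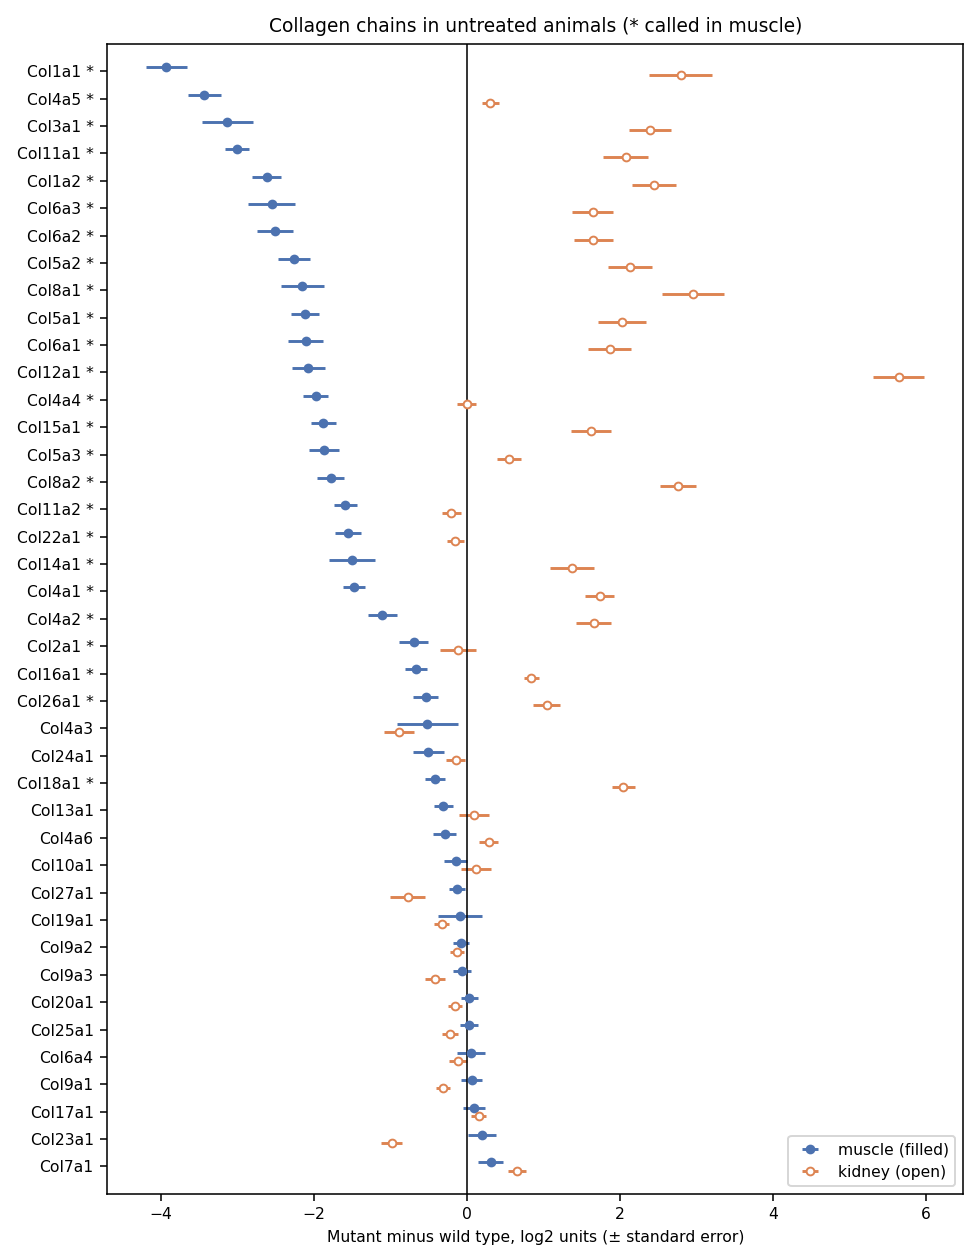
Change of each of the 41 collagen chains in untreated mutant muscle (filled points) and in kidney of the same animals (open points), in log2 units ± standard error, ordered by the change in muscle. An asterisk marks a call in muscle. In muscle 25 chains lie below 0 with a call, while Col1a1, Col1a2 and Col3a1 lie above 0 in kidney.

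The machinery that folds, trims and crosslinks collagen fell with the chains. Of 32 genes 18 were called lower and 0 higher (median -0.60), 15 to 19 without any 1 array and 13 with the 18S covariate. Serpinh1, the collagen chaperone of the endoplasmic reticulum, was at 10.00, 10.50 and 10.40 in wild type and at 7.93, 8.43, 8.71 and 8.68 in mutants (-1.86 ± 0.19, adjusted p = 1.65e-05). Crtap and P3h3, members of the prolyl 3-hydroxylase family, fell, with changes of -1.32 ± 0.21 and -1.29 ± 0.17. P4ha1, a catalytic subunit of prolyl 4-hydroxylase, fell by 1.15 ± 0.19, and Plod1, a lysyl hydroxylase, fell by 0.81 ± 0.11. Pcolce and Bmp1, an enhancer of propeptide cleavage and the protease that performs it, fell, with changes of -1.995 ± 0.21 and -0.99 ± 0.14. Lox, the main lysyl oxidase, was not called, with mutants at 10.02, 7.64, 8.46 and 8.93 on both sides of the wild-type values of 9.03, 8.78 and 9.11.

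Glycoproteins and proteoglycans of the matrix had 38 of 53 genes lower and 0 higher (median -0.98), 32 to 38 without any 1 array. Sparc, a collagen-binding glycoprotein, had the least spread of the strong falls, from 12.77, 12.69 and 12.75 to 10.82, 10.88, 10.75 and 10.75 (-1.94 ± 0.12, adjusted p = 1.39e-07). Lum, a small leucine-rich proteoglycan that spaces collagen fibres, went from 10.32, 10.39 and 10.46 to 6.82, 7.85, 8.29 and 8.83 (-2.44 ± 0.33). Its mutants spread over a wider range than those of Sparc, with replicate 1 lowest and replicate 4 nearest to wild type. Dpt, which binds decorin and speeds fibre assembly, fell by 1.99 ± 0.16, and Mfap4, a protein of elastic fibres, fell by 2.01 ± 0.25. Fn1, fibronectin, fell by 1.56 ± 0.28, or by 1.02 averaged over its probe sets. Dcn, decorin, fell by 0.66 ± 0.15, a call lost on averaging its probe sets (-0.41).

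Tendon genes fell most in proportion, with 10 of 12 called lower, 0 higher and a median of -1.22 (8 to 10 without any 1 array, 9 with the 18S covariate). Kera, keratocan, had the lowest fitted change of all genes called, from 9.26, 9.49 and 9.48 to 4.27, 5.75, 4.56 and 4.81 (-4.56 ± 0.27, adjusted p = 9.2e-08). Tnmd, tenomodulin, a membrane protein of mature tenocytes, went from 10.52, 10.43 and 10.67 to 5.87, 7.11, 6.70 and 6.95 (-3.88 ± 0.26, adjusted p = 2.06e-07). The groups were far apart for both, and 3 of the 4 Kera values in mutants lay under 5.01. Chad, chondroadherin, fell by 2.42 ± 0.32, Comp, cartilage oligomeric matrix protein, fell by 2.21 ± 0.29, and Mkx, a transcription factor of tendon, fell by 1.25 ± 0.21. Scx, the transcription factor that marks tendon progenitors, was dim and not called, at 5.75, 6.28 and 6.58 against 6.17, 5.75, 5.65 and 6.51. How much tendon each sample held was not measured apart from these genes, and its part in the matrix result was not tested.

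**Figure D3:**
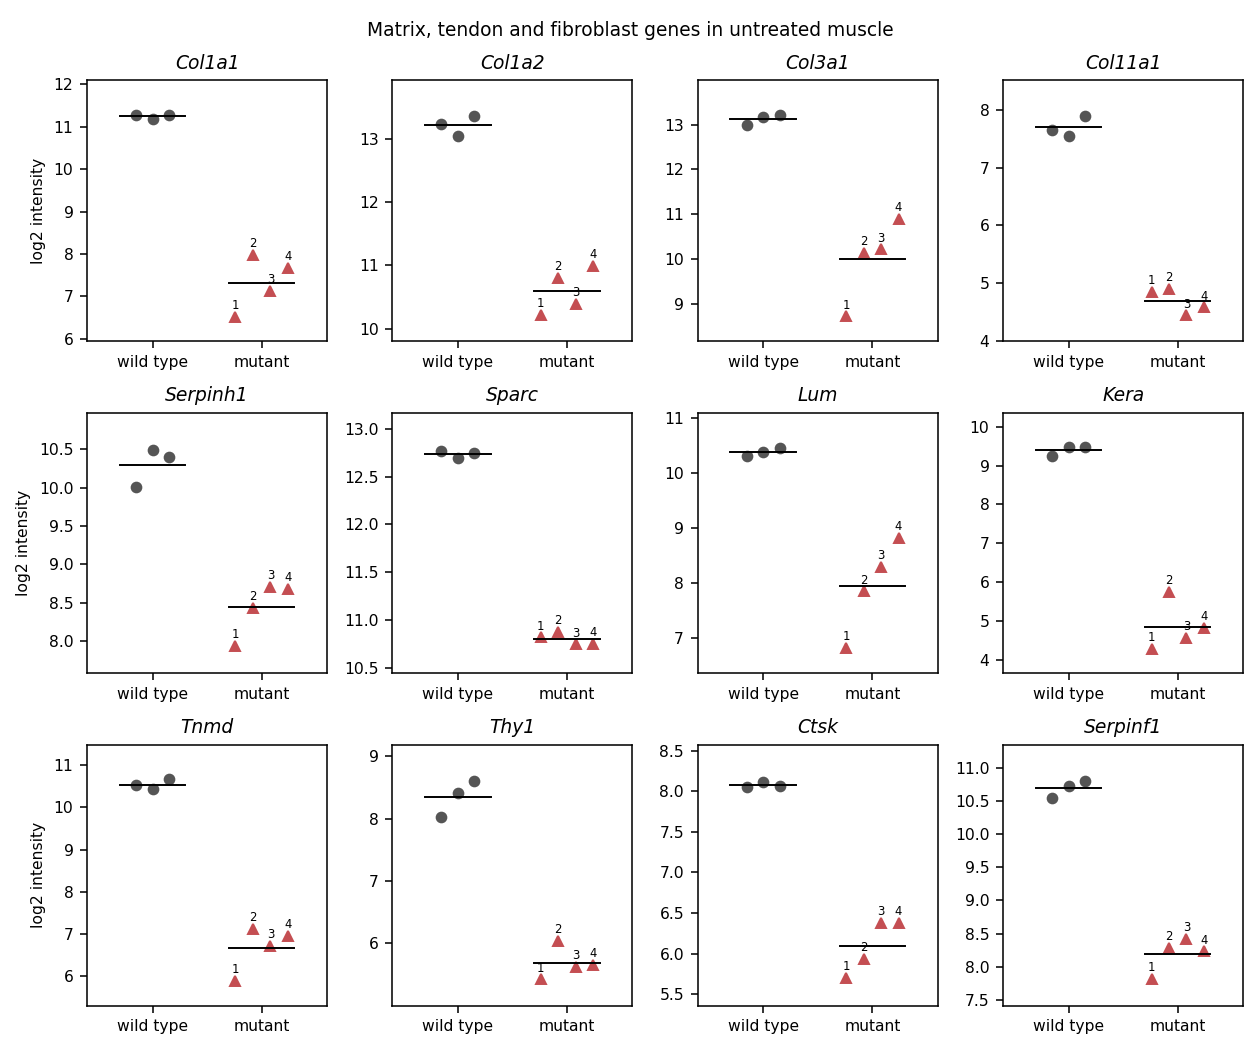
Log2 intensity of 12 genes of matrix, tendon and fibroblasts on each of the 3 wild-type arrays (circles) and 4 mutant arrays (triangles, with the replicate number) of untreated muscle; horizontal bars are group means. In none of the 12 does a mutant array reach the lowest wild-type array.

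Fibroblasts themselves were represented by 28 marker genes, of which 19 were lower and 0 higher (median -0.86; 17 to 19 without any 1 array, 15 with the 18S covariate). Cd34, a surface marker of the fibro-adipogenic progenitors that lie between fibres, was at 10.01, 10.16 and 10.02 in wild type and 7.90, 8.18, 8.67 and 8.82 in mutants (-1.67 ± 0.20). Thy1, another surface marker, went from 8.02, 8.40 and 8.61 to 5.42, 6.04, 5.62 and 5.65 (-2.66 ± 0.22). Pdgfra, the receptor that defines the progenitors, fell less, by 0.85 ± 0.17, by 0.40 averaged over its probe sets and by 1.28 with the 18S covariate. Ddr2, a receptor for fibrillar collagen, fell by 1.17 ± 0.13 and Igfbp6 fell by 0.93 ± 0.15. Pericyte and smooth muscle markers had 5 of 16 genes lower and a median of -0.23, with 3 lower without wild-type replicate 1 and 3 without replicate 2.

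Enzymes that degrade matrix were lower too, in 12 of 36 genes with 0 higher (median -0.35, 11 to 13 without any 1 array). Ctsk, cathepsin K, a collagenase, went from 8.05, 8.11 and 8.06 to 5.70, 5.93, 6.37 and 6.38 (-1.98 ± 0.16). Fap, fibroblast activation protein, fell by 2.30 ± 0.20, Mmp2, a gelatinase, fell by 1.07 ± 0.20 and its inhibitor Timp2 fell by 0.96 ± 0.11. Serpinf1, a secreted serpin that binds collagen, was at 10.55, 10.72 and 10.80 against 7.81, 8.28, 8.42 and 8.23 (-2.50 ± 0.15, adjusted p = 9.2e-08). All 5 separated the groups. Genes for both the synthesis and the breakdown of matrix were lower.

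Of 34 genes that glucocorticoids induce 20 were called higher and 1 lower, with a median of 1.10, and 16 to 21 were higher without any 1 array. With the 18S covariate 5 were called higher (median 0.87) and with the actin control 13. To show the regulatory sequence of this response, promoters that hold it are printed. Of these genes Mt1 and Sgk1 belong to this list, Trim63 to the FoxO and ubiquitin lists and Serpina3n to the STAT3 list. Each promoter is the 250 bases before the transcription start, from RefSeq on GRCm38.p6, with matches in capitals. The letters searched on both strands were GNACA, any 3 bases and TGTNC for the glucocorticoid response element and GTAAACA for the FoxO motif. Trim63 lies at chr4:134314870-134315119 (+ strand), Mt1 at chr8:94178839-94179088 (+ strand), Sgk1 at chr10:21993640-21993889 (+ strand) and Serpina3n at chr12:104406458-104406707 (+ strand).
Trim63: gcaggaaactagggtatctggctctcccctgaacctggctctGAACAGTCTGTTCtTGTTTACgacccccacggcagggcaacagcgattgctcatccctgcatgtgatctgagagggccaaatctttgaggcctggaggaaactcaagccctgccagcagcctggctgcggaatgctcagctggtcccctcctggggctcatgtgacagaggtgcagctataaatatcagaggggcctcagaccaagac
Mt1: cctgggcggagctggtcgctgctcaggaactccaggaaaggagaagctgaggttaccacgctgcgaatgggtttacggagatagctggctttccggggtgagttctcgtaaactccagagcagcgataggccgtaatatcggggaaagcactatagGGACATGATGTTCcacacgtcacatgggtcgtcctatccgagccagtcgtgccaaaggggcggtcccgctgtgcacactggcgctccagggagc
Sgk1: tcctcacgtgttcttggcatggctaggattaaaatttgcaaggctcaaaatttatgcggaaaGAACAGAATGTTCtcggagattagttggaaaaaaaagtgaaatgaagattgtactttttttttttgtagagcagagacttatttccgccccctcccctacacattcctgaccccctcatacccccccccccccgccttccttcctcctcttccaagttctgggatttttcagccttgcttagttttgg
Serpina3n: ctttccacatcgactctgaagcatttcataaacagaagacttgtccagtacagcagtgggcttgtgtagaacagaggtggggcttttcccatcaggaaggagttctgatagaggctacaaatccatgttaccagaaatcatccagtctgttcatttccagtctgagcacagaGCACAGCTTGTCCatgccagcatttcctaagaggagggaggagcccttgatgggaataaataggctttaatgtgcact
In Trim63 the response element begins 208 bases before the start and the FoxO motif, on the reverse strand, 194 bases before it. In Mt1, Sgk1 and Serpina3n the response element begins 94, 188 and 78 bases before the start. Of the 20 glucocorticoid genes called higher, 18 had a promoter in the table and 2 of these held the response element (11.1%), Mt1 and Sgk1. Among all 27025 genes with a promoter the share was 0.44%, among the 1027 genes called higher 0.779% and among the 1266 called lower 0.632%. For the FoxO motif the same shares were 3.54%, 2.82% and 2.37%. Of the FoxO list, 8 genes called higher had a promoter in the table and 1 of these held the FoxO motif, Trim63. A match of letters is a description of the window and does not show that a factor binds there.

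Fkbp5, a cochaperone that dampens the glucocorticoid receptor, was at 9.29, 8.83 and 8.87 in wild type and at 11.72, 10.71, 11.29 and 11.16 in mutants (2.22 ± 0.37, adjusted p = 0.000919). Cebpd, a transcription factor of the C/EBP family, went from 7.55, 8.36 and 8.19 to 11.97, 10.31, 10.75 and 10.96 (2.96 ± 0.44, adjusted p = 0.000357). Glul, glutamine synthetase, went from 10.26, 10.95 and 9.73 to 12.13, 12.29, 12.73 and 12.82 (2.18 ± 0.27, adjusted p = 0.000101). In each the lowest mutant lay above the highest wild-type array. These and Zbtb16, a zinc finger factor (1.02 ± 0.23), remained called without any 1 array and with the 18S covariate.

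Other members rose with more spread and lost their call with the 18S covariate. Arrdc2, an arrestin-domain gene, was at 5.51, 6.72 and 5.48 against 10.69, 8.84, 9.03 and 10.08 (3.75 ± 0.65, adjusted p = 0.00113). Mt1, a metal-binding protein, was at 9.04, 9.90 and 9.27 against 13.09, 10.47, 12.26 and 11.93 (2.54 ± 0.60), with replicate 1 highest and replicate 2 lowest of the mutants. Klf15, a factor that links glucocorticoids to amino acid breakdown, rose by 1.33 ± 0.26 and the clock gene Per1 by 1.76 ± 0.37, or by 0.81 and 0.91 with that covariate. Nr3c1, the glucocorticoid receptor itself, was not called (-0.11 ± 0.13), nor was Tsc22d3, a target known as GILZ, at 10.91, 11.52 and 10.83 against 11.30, 11.45, 12.10 and 11.62 (0.53 ± 0.25, adjusted p = 0.169). Sgk1, a kinase, was at 11.44, 11.66 and 11.59 against 11.92, 12.05, 12.49 and 12.17 (0.59 ± 0.17, adjusted p = 0.0256). That call was lost without wild-type replicate 1, 2 or 3 (0.53, 0.64 and 0.61) and without mutant replicate 3 or 4 (0.48 and 0.59), and with the 18S or actin covariate (0.39 and 0.59). Serpina3n, an acute-phase serpin of the STAT3 list, rose by 1.04 ± 0.31 (adjusted p = 0.033), and its call was lost without wild-type replicate 1 or 2 (0.86 and 0.92) or mutant replicate 1 (0.80), and with the 18S or actin covariate (1.40 and 1.02).

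FoxO factors and their targets had 11 of 22 genes higher and 3 lower (median 0.54), with changes from -0.94 to 2.14. Pdk4, a member of this list and of the glucocorticoid list, was not called (-0.15). The higher count fell to 6 without wild-type replicate 2, to 7 without wild-type replicate 3 and to 3 with the 18S covariate. The genes named next are among those that rose. Foxo3, a FoxO factor itself, was at 7.95, 7.79 and 7.96 in wild type and at 9.84, 8.57, 9.20 and 9.30 in mutants (1.33 ± 0.21, adjusted p = 0.000649). The changes of its 3 probe sets ranged from 0.15 to 1.33, so the value shown is the largest. Foxo1 was at 7.66, 8.12 and 7.93 against 9.59, 8.76, 9.53 and 8.71 (1.25 ± 0.27), and Foxo4 rose by 0.71 ± 0.13. Foxo1 and Foxo4 lost their calls with the 18S covariate and Foxo3 did not. Sesn1, sestrin 1, an inhibitor of mTOR signalling, went from 9.55, 8.79 and 8.75 to 12.45, 10.26, 10.81 and 11.16 (2.14 ± 0.37, adjusted p = 0.00112). Gadd45a, a stress gene of atrophying muscle, was at 9.10, 9.19 and 9.02 against 9.86, 9.71, 10.08 and 9.40 (0.66 ± 0.15), called in every setting run but the one with the actin control as covariate.

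Ubiquitin ligases are the enzymes that mark muscle proteins for the proteasome. Of 38 genes of the ubiquitin system 9 were higher and 2 lower (median 0.26), but only 4 were higher without wild-type replicate 2, 5 without wild-type replicate 3, 4 without mutant replicate 4 and 1 with the 18S covariate. Trim63, the ligase MuRF1, was at 11.30, 10.76 and 11.17 in wild type and at 13.09, 11.61, 11.52 and 11.86 in mutants (0.94 ± 0.29, adjusted p = 0.0373). The groups did not overlap, and replicate 1 stood above the other mutants. Without mutant replicate 1 the change was 0.58 and was called, and the call was lost without wild-type replicate 1, 2 or 3 (1.05, 0.78 and 0.99) or mutant replicate 4 (0.99). It was lost as well with array weights (0.55), in the fit on the 7 arrays alone (0.94) and with the 18S or actin covariate (1.05 and 0.75). Fbxo32, the ligase atrogin-1, was at 10.51, 9.62 and 9.56 against 13.50, 10.20, 10.94 and 11.62 (1.67 ± 0.54, adjusted p = 0.0454), and the groups overlapped. Its call was lost without wild-type replicate 2 or 3 or mutant replicate 4, without mutant replicate 1 (1.02), with array weights (1.07), averaged over its probe sets (1.52), with quantile normalization (1.61), in the fit on the 7 arrays alone, and with the 18S or actin covariate (1.25 and 1.22). Fbxo31, the substrate-binding part of another ubiquitin ligase, rose from 9.71, 9.43 and 9.59 to 11.65, 10.40, 10.75 and 10.93 (1.36 ± 0.22, adjusted p = 0.000745), called without any 1 array and with the 18S covariate. Proteasome subunits had 3 of 42 genes higher and 3 lower, with a median of 0.01, which is 7.14% in each direction beside 6.93% and 9.04% of all genes, and 1 in each direction without any 1 of the wild-type arrays or mutant replicate 1. Autophagy and lysosome genes had 11 of 39 higher and 3 lower (median 0.18), but 5 higher without wild-type replicate 2 or 3 and 0 with the 18S covariate.

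**Figure D4:**
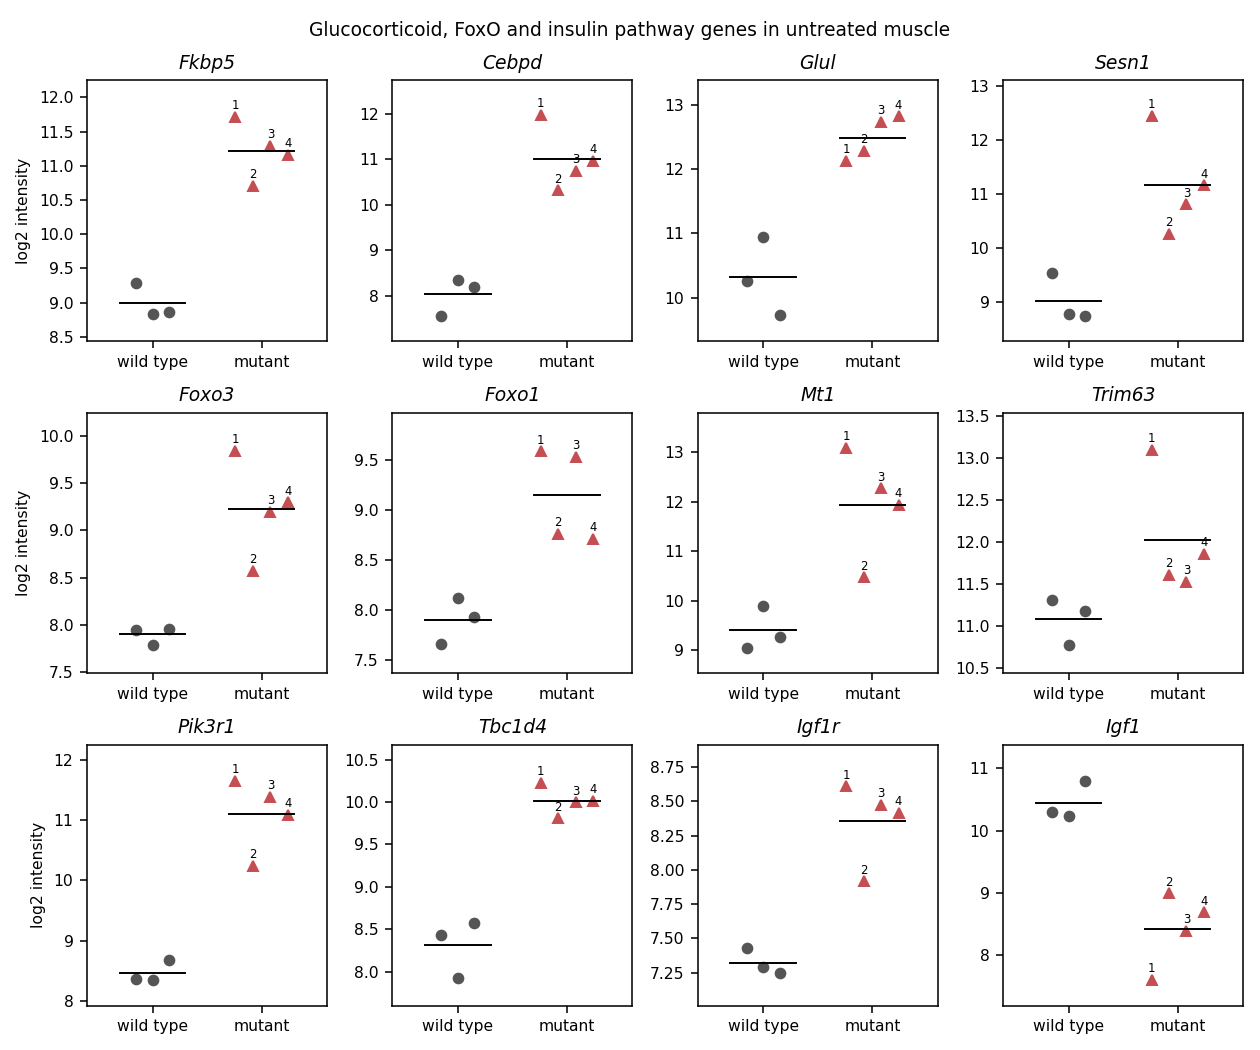
Log2 intensity of 12 genes of the glucocorticoid, FoxO and insulin pathways on each of the 3 wild-type arrays (circles) and 4 mutant arrays (triangles, with the replicate number) of untreated muscle; horizontal bars are group means. Mutant replicate 1 is the highest mutant in most rising genes, and Igf1 is the gene that falls.

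Genes of insulin, insulin-like growth factor and mTOR signalling moved in both directions, with 16 of 52 higher and 7 lower (median 0.13). Without any 1 array 12 to 20 were higher and 5 to 8 lower, and with the 18S covariate 5 and 3. Igf1, the growth factor that muscle makes for its own growth and repair, was at 10.29, 10.24 and 10.80 in wild type and at 7.60, 8.99, 8.39 and 8.68 in mutants (-2.03 ± 0.25, adjusted p = 8.3e-05). Its receptor Igf1r was at 7.43, 7.29 and 7.25 against 8.61, 7.92, 8.48 and 8.42 (1.03 ± 0.16, adjusted p = 0.000462). The ligand was thus lower and the receptor higher, both with no overlap between the groups. Igfbp3, a binding protein that carries the ligand, rose by 1.64 ± 0.33, with its call lost under the 18S covariate, and Igfbp7 fell by 0.84 ± 0.16.

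Inside the cell, Pik3r1, the regulatory subunit of the kinase that insulin receptors recruit, went from 8.35, 8.35 and 8.68 to 11.66, 10.24, 11.40 and 11.09 (2.64 ± 0.29, adjusted p = 3.27e-05). Tbc1d4, the Akt substrate that controls movement of glucose transporters to the membrane, went from 8.44, 7.93 and 8.58 to 10.23, 9.81, 10.00 and 10.01 (1.70 ± 0.17, adjusted p = 1.24e-05). Slc2a4, the glucose transporter itself, was not called, at 11.35, 11.31 and 11.34 against 11.28, 11.78, 11.58 and 11.67. Tsc1, a subunit of a complex that restrains mTOR, was at 8.77, 8.37 and 8.79 against 10.04, 9.45, 9.60 and 9.57 (1.02 ± 0.15, or 0.60 averaged over its probe sets). Ddit4, another inhibitor of mTOR, which stress and glucocorticoids induce, was at 6.75, 6.79 and 6.34 against 10.32, 8.50, 9.17 and 9.50 (2.74 ± 0.69, adjusted p = 0.0126, lost with the 18S covariate and with the actin covariate). Mtor, the kinase itself, rose by 0.69 ± 0.14 (0.41 averaged over its probe sets) and Akt1 by 0.84 ± 0.17, and both lost their calls with the 18S covariate. The 3 probe sets of Akt1 ranged from 0.11 to 0.97. Irs1, the insulin receptor substrate, fell by 0.87 ± 0.23, and was not called without wild-type replicate 3 (-0.80) or with the 18S or actin covariate (-0.48 and -0.78). Grb14, an adaptor that blocks the insulin receptor, fell by 1.84 ± 0.34 on its brightest probe set and by 0.93 averaged over its probe sets, and lost its call with the 18S covariate.

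Of 53 translation factors 19 were higher, 1 lower and 33 not called (median 0.22). Leaving out wild-type replicate 2 left 10 higher, and the 18S covariate left Eef2k alone. That kinase, which switches off elongation, had tight arrays at 9.51, 9.44 and 9.37 against 10.41, 10.17, 10.32 and 10.44 (0.90 ± 0.11, adjusted p = 0.000102). Eef2, the elongation factor that it inactivates, rose by 0.64 ± 0.12. Eif4ebp1, the repressor of cap-dependent initiation, was at 10.29, 10.51 and 9.99 against 12.71, 10.91, 11.65 and 11.55 (1.44 ± 0.27). Cytosolic ribosomal proteins had 16 of 40 genes higher and 1 lower (median 0.25), but 6 without wild-type replicate 1, 10 without wild-type replicate 3, 10 without mutant replicate 4 and 0 with the 18S covariate. Mitochondrial ribosomal proteins had 11 of 76 lower, 0 higher and a median of -0.17, against -0.05 over all genes. The share of this list called in either direction was near the 16% of all genes. Of all genes 6.93% were higher and 9.04% lower. The lower count of this list was 4 without wild-type replicate 2, 5 without wild-type replicate 3, 20 without mutant replicate 2 and 1 with the 18S covariate.

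Amino acid and polyamine genes had 11 of 45 higher and 2 lower (median 0.17; 8 to 13 higher without any 1 array, 5 with the 18S covariate). The heavy chain Slc3a2, which carries large neutral amino acid transporters to the membrane, was at 8.10, 8.08 and 8.53 against 9.51, 8.95, 9.15 and 9.55 (1.05 ± 0.16, adjusted p = 0.000567). Its best known partner Slc7a5 was not called, at 5.86, 5.97 and 5.86 against 6.32, 5.79, 5.78 and 5.99. Slc7a2, a carrier of cationic amino acids, rose by 0.96 ± 0.16, or by 1.55 averaged over its probe sets. Cth, which makes cysteine, went from 5.16, 4.95 and 4.73 to 6.52, 6.53, 7.52 and 7.16 (1.99 ± 0.30, adjusted p = 0.000403). Bckdhb, a subunit of the complex that commits branched-chain amino acids to breakdown, rose by 0.86 ± 0.14. Smox, which oxidises spermine and is known to fall in atrophy, went from 11.61, 11.63 and 11.76 to 8.85, 10.65, 9.66 and 9.12 (-2.10 ± 0.47, adjusted p = 0.00655, lost with the 18S covariate and with the actin covariate). Slc15a2, a peptide transporter, went from 4.06, 3.88 and 5.48 to 9.55, 7.31, 7.94 and 8.23. Its change was 3.78 ± 0.69 on the brightest of 3 probe sets, which alone moved in this direction, and 1.17 with their mean, and the call was lost with the 18S covariate.

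Of 16 contractile genes of fast fibres 1 was called, Casq1 (-0.57 ± 0.16), lower, a calcium store protein, and none with the 18S or actin covariate, nor in the fit on the 7 arrays alone or without any 1 of the wild-type arrays or mutant replicate 1. In 5 of the 16 the arrays of the groups lay apart, 2 with mutants higher and 3 lower. Over all genes they lay apart in 23.3%, with mutants higher in 9.76% and lower in 13.5%. Myh4, the fastest myosin heavy chain, was at 14.12, 14.06 and 14.15 against 14.27, 14.15, 14.16 and 14.09 (0.06 ± 0.08), and Acta1, skeletal actin, changed by 0.02 ± 0.08. These probe sets are among the brightest on the arrays, and whether they can register a change at that signal was not tested. Slow-fibre genes had 6 of 18 higher and 0 lower (median 0.70). The count was 1 without wild-type replicate 2, 3 without mutant replicate 3 or 4, 10 without mutant replicate 2 and 0 with the 18S covariate. Myh7, the slow myosin heavy chain, was at 10.83, 9.80 and 11.05 against 12.38, 11.21, 12.05 and 12.54 (1.48 ± 0.36, adjusted p = 0.0114), and 1.11 and not called without wild-type replicate 2, nor called with the 18S or actin covariate. Myoz2, a protein of the Z-disc in slow fibres, rose by 0.83 ± 0.17, or by 0.45 and uncalled with the 18S covariate.

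Other structural genes of the sarcomere had 8 of 33 higher and 1 lower, with 2 higher without wild-type replicate 2, 5 without mutant replicate 4, 1 with the 18S covariate and 2 with the actin covariate. Lmod2, which builds actin filaments, was at 10.01, 10.11 and 10.05 against 11.18, 11.09, 11.29 and 11.65 (1.25 ± 0.22, lost with the 18S covariate). Mypn, myopalladin of the Z-disc, was at 11.63, 11.26 and 11.52 against 12.32, 12.09, 12.13 and 12.21 (0.72 ± 0.11), and remained called with it. Of 22 genes of the neuromuscular junction and of denervation 4 were higher and 0 lower, or 2 higher without any 1 of the wild-type arrays or mutant replicate 4 or with the 18S covariate, and 1 with the actin covariate. Musk, the kinase that clusters acetylcholine receptors, was at 6.98, 6.73 and 6.45 against 7.77, 7.31, 7.82 and 7.54 (0.89 ± 0.15, adjusted p = 0.00117). Chrng, the embryonic receptor subunit that denervated fibres make again, was not called (0.04 ± 0.16) and stayed near the level of kidney markers.

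Satellite cells, the stem cells of muscle, and their progeny had 4 of 32 genes higher and 4 lower (median 0.13). That is 12.5% in each direction beside 6.93% and 9.04% of all genes. Without wild-type replicate 2 there was 1 higher. With the 18S covariate 0 were higher and 2 lower, and with the actin covariate 0 and 3. Pax7, which defines satellite cells, was dim and not called (-0.11 ± 0.15), nor was Myod1 or Myog, factors of their differentiation. Mymk, myomaker, needed for fusion, fell from 5.74, 6.36 and 5.89 to 4.89, 4.76, 4.92 and 5.05 (-1.09 ± 0.24, adjusted p = 0.0059). Megf10, a receptor that keeps satellite cells dividing, fell by 1.44 ± 0.26. Both were near the level of kidney markers in the mutants. Proliferation genes had 6 of 50 lower and 0 higher (12% beside 9.04% of all genes). The count was 3 without wild-type replicate 2 or 3 or mutant replicate 4, and 1 with the 18S covariate.

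Subunits of oxidative phosphorylation had 24 of 81 genes lower (29.6%, beside 9.04% of all genes) and 0 higher, by small amounts (median -0.23). By complex, 14 of 34 subunits of complex I fell, 2 of 4 of complex II, 3 of 9 of complex III, 2 of 17 of complex IV and 3 of 17 of the ATP synthase. The shares of complex IV and of the ATP synthase lay nearest to that of all genes. Ndufb2 of complex I was at 12.67, 12.81 and 12.22 against 11.80, 12.12, 11.89 and 11.67 (-0.70 ± 0.16). Of its 3 probe sets 2 moved in this direction, and their changes ranged from -0.91 to 0.16 over all 3. The count over all subunits moved with single arrays. It was 5 without wild-type replicate 2, 11 without wild-type replicate 1, 14 without wild-type replicate 3, and 9, 36, 14 and 13 without mutant replicates 1, 2, 3 and 4. It was 12 with median centring, 4 with the fit on the 7 arrays alone and 0 with the 18S covariate.

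Among genes of fuel use, Pdk2, a kinase that turns pyruvate away from the citric acid cycle, was at 9.79, 9.49 and 9.75 against 10.55, 10.43, 10.71 and 10.54 (0.88 ± 0.10, adjusted p = 5.32e-05), while Pdk4, the form that fasting induces, was not called (11.73, 12.24 and 12.24 against 12.90, 11.15, 11.93 and 11.68). Acads, a dehydrogenase of fatty acid oxidation, fell by 0.81 ± 0.13. Slc27a1, a fatty acid transporter, rose by 0.92 ± 0.17 and Lpin1, a phosphatidate phosphatase, by 0.99 ± 0.18. Plin4, a coat protein of lipid droplets, went from 10.31, 10.36 and 9.94 to 12.43, 11.53, 11.76 and 11.81 (1.68 ± 0.19, adjusted p = 4.14e-05), and Adipoq, the defining marker of fat cells, was not called, at 9.91, 10.41 and 10.36 against 9.85, 11.23, 10.85 and 10.80. Fatty acid oxidation genes had 7 of 45 higher and 6 lower (15.6% and 13.3%), and glycolysis and glycogen genes had 4 of 36 in each direction (11.1%). Over all genes 6.93% were higher and 9.04% lower. Without wild-type replicate 2 the counts were 2 and 4 for fatty acid oxidation and 0 and 1 for glycolysis, and without mutant replicate 2 glycolysis had 10 lower. Without wild-type replicates 1 and 3 and mutant replicates 1 and 3 the higher fatty acid counts were 4, 4, 3 and 4, and without wild-type replicate 3 the lower one was 3. Without wild-type replicate 3 glycolysis had 1 in each direction, and without mutant replicate 1 or 3 it had 2. With the 18S covariate fatty acid oxidation had 3 higher and 1 lower and glycolysis 1 and 0. Citric acid cycle genes had 3 of 30 higher and 6 lower (10% and 20%, median -0.17). The lower count was 2 without wild-type replicate 1 or 3 or mutant replicate 1, 3 without mutant replicate 3 or 4 and 10 without mutant replicate 2. It was 2 with median centring and 0 with the 18S covariate, the actin covariate or the fit on the 7 arrays alone. Glutathione genes Gstm1 and Gstm2 rose by 0.71 ± 0.10 and 0.97 ± 0.16 and the peroxidase Gpx3 by 1.21 ± 0.23, within 4 of 25 antioxidant genes higher and 1 lower (16% and 4%).

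Of 39 interferon-induced genes 18 fell and 1 rose (median -0.46), 13 to 17 fell without any 1 array, and 5 with the 18S covariate. Gbp3, an interferon-induced GTPase, went from 7.39, 6.998 and 7.05 to 5.67, 6.16, 5.74 and 5.90 (-1.28 ± 0.17, adjusted p = 0.000171). Gbp2 fell by 1.21 ± 0.20 and Ifit1, which binds viral RNA, from 5.62, 5.56 and 5.60 to 4.70, 4.66, 4.31 and 4.48 (-1.06 ± 0.14). Those 3 kept their calls with the 18S covariate. H2-Aa, a chain of the class II molecules that present antigen, went from 9.08, 9.34 and 9.02 to 6.83, 7.12, 7.56 and 7.48 (-1.90 ± 0.33). Of 16 complement genes 6 fell and 0 rose (2 with the actin covariate), among them C1s1 (-0.88 ± 0.18) and C1ra (-0.75 ± 0.15), proteases that start the classical pathway. Ccl11 and Cxcl14, chemokines, fell, with changes of -1.07 ± 0.22 and -1.08 ± 0.17.

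Macrophage markers had 7 of 30 lower and 1 higher (median -0.30). Without mutant replicate 2 there were 4 in each direction, and with the actin covariate 1 in each and a median of -0.02. The lower count ran from 2 without wild-type replicate 3 to 12 without mutant replicate 4. It was 4 without wild-type replicate 1, 3 without wild-type replicate 2 and 4 without mutant replicate 1. Folr2, a marker of resident macrophages, was at 6.96, 7.12 and 6.99 against 6.07, 6.16, 6.31 and 6.37 (-0.80 ± 0.13), and Lgals3, galectin 3, rose from 6.68, 7.43 and 7.26 to 9.01, 8.07, 8.94 and 9.81 (1.83 ± 0.38, lost with the 18S covariate).

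Of 33 STAT3 and acute-phase genes 9 were higher, 1 lower and 23 not called (median 0.31; 7 to 10 without any 1 array, 2 with the 18S covariate). Lrg1, a secreted glycoprotein that STAT3 induces, was at 7.80, 7.92 and 8.04 against 9.62, 9.04, 9.24 and 8.82 (1.26 ± 0.16, adjusted p = 0.000108). Il6ra, a receptor for interleukin 6, rose from 5.89, 6.49 and 6.12 to 9.43, 7.13, 8.02 and 7.57 (1.87 ± 0.41, or 1.10 averaged over its probe sets). Osmr, the receptor for oncostatin M, rose by 1.12 ± 0.22, or by 0.62 with that mean, and both lost their calls with the 18S covariate. Lcn2, lipocalin 2, which injured kidney and inflamed tissue release, was at 4.80, 4.995 and 4.75 in wild-type muscle and at 10.01, 6.29, 6.06 and 6.87 in mutants (2.46 ± 0.63, adjusted p = 0.0139), with replicate 1 well above the other 3. Without that replicate the change was 1.56 and was called, and the call was lost in the fit on the 7 arrays alone and with the 18S or actin covariate (2.46, 2.31 and 1.93). Socs3, the feedback inhibitor of STAT3, was not called, at 7.54, 7.61 and 10.06 against 10.00, 7.67, 8.68 and 8.50.

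Of 48 endothelial genes 11 were lower and 3 higher (22.9% and 6.25%, beside 9.04% and 6.93% of all genes). The lower count was 4 without wild-type replicate 1, 7 without wild-type replicate 2, 6 without wild-type replicate 3, 7 without mutant replicate 1 and 5 with the 18S covariate. The higher count was 1 without wild-type replicate 1 or 2 or mutant replicate 3. Pecam1, which defines endothelium, was not called (7.89, 7.74 and 7.54 against 8.11, 7.67, 7.90 and 8.22). Aplnr, the apelin receptor, fell from 9.73, 8.94 and 8.49 to 4.58, 5.61, 5.57 and 4.61 (-3.96 ± 0.37, adjusted p = 7.42e-06). Vegfc, a growth factor for lymphatic vessels, fell by 1.02 ± 0.19, Cdh5, the cadherin of endothelial junctions, fell by 0.61 ± 0.13, and Flt1, a receptor for vascular endothelial growth factor, rose by 0.85 ± 0.13.

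The trap given to other animals of the series binds activins and related ligands outside the cell. Of 44 ligands, receptors and inhibitors of activin, TGF-beta and BMP signalling 4 were higher and 8 lower in untreated mutant muscle (9.09% and 18.2%, beside 6.93% and 9.04% of all genes). The ligand gene Inhba was not called, at 6.44, 6.49 and 6.52 against 6.21, 6.38, 6.09 and 6.07 (-0.30 ± 0.11, adjusted p = 0.079), and neither was the receptor Acvr2a. Among receptors, Acvr1b, through which activin signals, was at 9.19, 9.27 and 9.60 against 10.81, 10.03, 10.43 and 10.54 (1.10 ± 0.19, lost with the 18S covariate), and Tgfbr1 rose by 0.74 ± 0.15. The 3 probe sets of Tgfbr1 ranged from 0.16 to 0.74. Among inhibitors, Fstl1, a follistatin-like glycoprotein made by fibroblasts, went from 10.49, 10.76 and 10.82 to 8.24, 8.74, 9.29 and 9.51 (-1.74 ± 0.25, adjusted p = 0.000312). Bambi, a decoy receptor, fell by 1.21 ± 0.17, and the ligand Bmp5 fell by 0.99 ± 0.22. Without wild-type replicate 2 the higher count was 2, and without wild-type replicate 1 or mutant replicate 1 the lower count was 5. With the 18S covariate 1 was higher and 5 lower, and with the actin covariate 2 and 4.

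Wnt genes had 10 of 35 lower and 1 higher (median -0.15; 8 to 10 lower without any 1 array, 5 with the 18S covariate). Secreted inhibitors led, with Wif1 at 7.75, 7.78 and 8.56 against 4.35, 5.02, 4.61 and 4.01 (-3.54 ± 0.28, adjusted p = 1.28e-06), Sfrp2 at -1.83 ± 0.29 and Frzb at -1.59 ± 0.30 (lost with the 18S covariate). The receptor Fzd4 was the one that rose (0.87 ± 0.16). Clock genes had 5 of 18 higher and 0 lower (median 0.41), with 3 without wild-type replicate 3, 9 without mutant replicate 2 and 0 with the 18S covariate. Cry2, a repressor of the clock, was at 7.45, 7.33 and 7.19 against 9.56, 7.85, 8.36 and 8.46 (1.23 ± 0.27), and Arntl, its activator, was not called (0.29 ± 0.43). No hour of sampling is stated for these animals.

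Of the genes with the largest changes, several belong to none of the groups above. Ptp4a3, a tyrosine phosphatase, went from 11.39, 11.02 and 11.31 to 13.02, 12.67, 12.98 and 12.90 (1.65 ± 0.13, adjusted p = 9.32e-07). It was chosen after its values were seen. Ctxn3, cortexin 3, went from 10.02, 9.28 and 8.97 to 12.44, 11.29, 11.64 and 11.73 (2.35 ± 0.34). Acsm3, an acyl-CoA synthetase, went from 3.73, 4.60 and 3.86 to 5.88, 6.24, 6.51 and 6.41, with its wild-type arrays under the level of kidney markers. Among the falls, Nrep, a gene of regenerating tissue, went from 12.03, 12.35 and 12.27 to 7.58, 10.48, 9.47 and 9.18 (-3.04 ± 0.42), and C1qtnf3, a secreted relative of adiponectin, from 6.24, 6.43 and 7.04 to 3.31, 2.88, 3.72 and 3.41 (-3.24 ± 0.46). Ret, a receptor tyrosine kinase, fell by 2.76 ± 0.18, a change of -1.58 on the average of its probe sets. Gamt, which makes creatine, went from 9.09, 9.06 and 8.97 to 5.27, 7.66, 6.37 and 6.66 (-2.55 ± 0.37).

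The genotypes were also compared in muscle of animals that received the trap, 4 wild type and 4 mutants. The group means share no array with those above, but the spread of each gene comes from the same fit of all 15 muscle arrays. The calls of these comparisons are therefore not independent. There 295 genes were called (1.66%), 26 higher and 269 lower (1.51%). Of the 2840 genes called without the trap 241 were called with it, 240 of them in the same direction, and the 241 are 8.49% of the first list and 81.7% of the second. The difference between the genotype effects was called for 30 genes (0.169%), and since it shares its 7 untreated arrays with the comparison above, these genes are a subset and no separate evidence. The count was 12 without wild-type replicate 2, 14 without wild-type replicate 3, 569 without mutant replicate 2, 363 with array weights and 11 with the 18S covariate. All 30 were called without the trap, and with it their genotype difference was smaller or opposite. Of 41 collagen chains 15 were lower with the trap (median -0.53) and 7 had a called difference between the settings.

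Col1a1 differed by -3.93 ± 0.27 without the trap and by -0.996 ± 0.25 with it, a difference of 2.93 ± 0.36 (adjusted p = 0.00219). Kera differed by -4.56 and -1.55, a difference of 3.01 ± 0.36 (adjusted p = 0.00215). Sparc differed by -1.94 and -0.63 (difference 1.31 ± 0.17, adjusted p = 0.00301). Serpinf1 differed by -2.50 and -0.79 (difference 1.71 ± 0.20), Tnmd by -3.88 and -1.32 (difference 2.56 ± 0.36) and Wif1 by -3.54 and -1.12 (difference 2.41 ± 0.38). No gene of the glucocorticoid, FoxO, insulin or ubiquitin lists had a called difference, beside 0.169% of all genes. In lists of this size that share gives few calls or none, so their absence does not set these lists apart. For Fkbp5 the genotype changes were 2.22 and 1.43, for Pik3r1 2.64 and 0.75, for Igf1 -2.03 and -0.64 and for Foxo3 1.33 and 0.23, with adjusted p of their differences between 0.0625 and 0.474. Ctps2, a CTP synthase, was one of 3 with a called difference downwards (0.0169% of genes), at 1.52 without the trap and -0.05 with it (0.84 without it averaged over its probe sets).

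**Figure D5:**
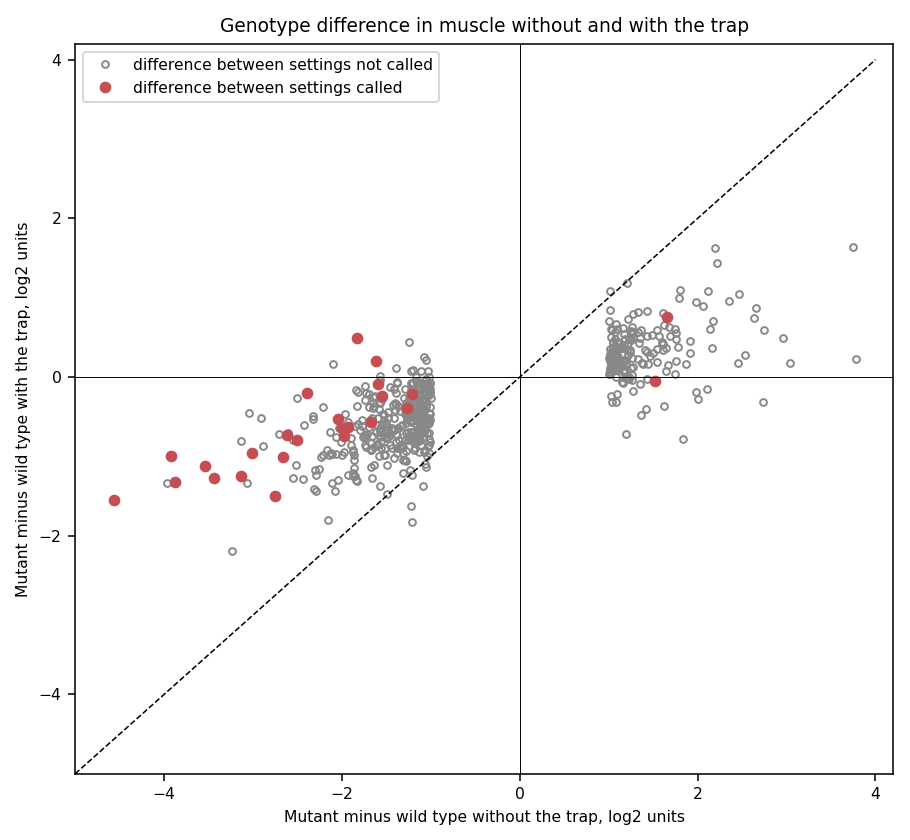
Genotype difference in muscle without the trap (horizontal axis) and with it (vertical axis), in log2 units, for the 558 genes called with at least a 2-fold change without it; filled points are the 25 of them with a called difference between the settings. The dashed line marks equal differences, and the filled points lie nearer to 0 on the vertical axis than on the horizontal one.

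Kidneys of the same animals, tied to the muscle samples by the animal number in the titles, gave the site of the mutation for comparison. In kidney 9089 genes were called (51.1%), 24.1% higher and 27% lower, so a call there is common. Of the 41 collagen chains 22 were higher in kidney and 6 lower (median 0.55), and in muscle 25 were lower. The difference between the tissues was called for 35.4% of genes, higher in kidney for 18.8%. Col1a1 was higher in mutant kidney by 2.79 ± 0.41, and the genotype difference in kidney exceeded that in muscle by 6.72 ± 0.50 (adjusted p = 5.13e-08). Col3a1 was higher in kidney by 2.39 and Sparc by 1.93, with differences from muscle of 5.53 ± 0.41 and 3.86 ± 0.22. Fibroblast markers were higher in 14 of 28 and lower in 4 in kidney, and Thy1, which fell in muscle, was higher there by 3.08. Of the tendon genes, Kera was not called in kidney (0.12), and Tnmd was lower there by 0.38 (adjusted p = 0.048). Interferon-induced genes were higher in 26 of 39 in kidney against 18 lower in muscle. Cebpd was higher in both tissues, by 2.84 in kidney and 2.96 in muscle, and Igf1 was not called in kidney (0.23). Trim63 changed by -3.29 in mutant kidney and was higher in mutant muscle by 0.94, with a difference of -4.23 ± 0.56.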

How the data were processed

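RNA of 15 muscle samples was measured on Affymetrix mouse expression arrays, and 7 of them are compared here. The authors deposited log2 values for 35088 probe sets, and their normalization is not given in the sources used. Of these probe sets 31563 are annotated to 1 symbol, 825 to several and 2700 to none, and each of 17782 symbols was represented by its brightest probe set over the muscle arrays, in kidney as well. The deposited values were fitted with limma 3.58.1 in R 4.3.3, with 4 muscle groups sharing 1 variance estimate, and Benjamini-Hochberg adjustment over all genes. Kidney was compared with muscle as the difference within each animal. Precision is limited by the number of arrays. On simulated data with 200 changed genes, limma recovered 92% of log2 changes of 1 and 99% of log2 changes of 2 and made 10 false calls. The simulation gave all arrays independent noise of the same spread for a gene. The root mean square deviation from the group mean was 0.29, 0.27, 0.17 and 0.22 in mutant replicates 1 to 4, and 0.16 to 0.19 in wild type. Whether the simulated rates hold for such unequal arrays was not tested. The probe sets, alternatives and covariates tried are reported in the closing section.

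The members and lists were chosen with earlier results of these data known. Named genes were drawn from the 20 largest rises and falls whose arrays do not overlap, in each list the 6 largest calls a direction and the 3 brightest genes not called, and a set of key genes. The text names a part of the genes this rule gives, picked with their values known. Chosen outside them, after their values were seen, were Adipoq, Akt1, Bckdhb, Cdh5, Ctps2, Dcn, Ddr2, Fn1, Gbp2, Ifit1, Lox, Mtor, Myod1, P4ha1, Pdgfra, Pecam1, Plod1, Ptp4a3, Slc7a5, Timp2, Tsc1 and Umod. Promoter sequences are from RefSeq. The activin-family genes Mstn, Gdf11 and Gdf15 were not analysed here.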

Additional observations from a re-analysis of the deposited data

Results flagged for a closer look

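Among 157 genes named in the text, 3 had one mutant array apart from the other mutants of untreated muscle, a gap that chance gives in about 1 of 20 groups. Cdh5 was at 7.84 in replicate 2 and between 8.09 and 8.14 in the others. Col12a1 was at 6.61 in replicate 4 and between 5.47 and 5.62 in the others. Dpt was at 7.52 in replicate 1 and between 8.31 and 8.42 in the others.

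The genotype difference with the trap minus that without it was called for 15 of the genes named. Upwards these were Kera (3.01), Col1a1 (2.93), Tnmd (2.56), Wif1 (2.41), Col4a5 (2.16), Col11a1 (2.05), Col1a2 (1.89), Serpinf1 (1.71), Thy1 (1.65), Dpt (1.36), Col22a1 (1.32), Sparc (1.31) and Ret (1.26). Downwards they were Ctps2 (-1.56) and Ptp4a3 (-0.90). The limma adjusted p lay at 0.000913 for Col11a1, the smallest, and at 0.0499 for Ret and Ptp4a3.

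The genotype difference in kidney minus that in muscle, tested within animals, was 6.72 for Col1a1, 5.53 for Col3a1, 5.74 for Thy1, 3.86 for Sparc and -4.23 for Trim63, all called.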

How the results depend on the processing

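The count of 2840 genes called in untreated mutant muscle (1232 higher, 1608 lower) fell to 1643 (589 and 1054) in the fit on the 7 arrays alone, to 853 (223 and 630) with the 18S signal as covariate and to 1348 (514 and 834) with the actin control as covariate. The first of these uses fewer arrays for the spread; the cause of the other falls was not tested. Without any 1 array the count lay between 1659 and 3607 (590 to 1691 higher, 1068 to 1916 lower). The count with at least a 2-fold change stayed within 1.5 times of 558 in all settings run. The 30 genes whose genotype difference differed between trap and PBS became 51 among genes above the median level, 65 with quantile normalization, 363 with array weights, 48 with a trended prior variance, 54 with the replicate block, 11 with the 18S covariate and 12 to 569 without any 1 array. The cause was not tested. The kidney minus muscle count stayed within 1.5 times of 6290 in all settings run. Replicate numbers are shared by the groups, but the deviations of same-numbered arrays correlated at 0.143, 0.176 and -0.040, so they were not taken as pairs, and with the replicate block 2532 genes were called. All 2840 calls kept their sign with the 18S covariate. No call of a gene named in the text changed sign in any setting.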
